A study of Saccharomyces cerevisiae with 6 samples.

Results

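Convergent gaps are the stretches in which 2 neighbouring budding yeast genes point at each other, so that both transcripts end between them. They were taken from the bins of 50 bases of the deposited coverage table. A gap was a run of bins with no ORF label between a Watson ORF on its left and a Crick ORF on its right, 100 to 2000 bp long, with no bin labelled ARS, tRNA, snoRNA or retrotransposon. There were 1007 such gaps, holding 5825 of the 240976 bins of the table, of which 5702 had a value. Their lengths ran from 100 to 1900 bp with a median of 200 bp. Each gap was read on both strands, each strand as the 3′ end of the ORF that runs into it, which gave 2002 ends with a gap value and an ORF value. An end is named here by its upstream ORF. Convergent gaps of 50 bp, which the size limit leaves out, had a median level of 0.328 per strand, beside 0.299 in gaps of 100 bp.

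Coverage came from stranded sequencing of mRNA from exponentially growing cultures in rich medium (YPD), with fission yeast total RNA added to each extract for scaling (the spike-in). The 6 libraries fall into 3 groups of 2. The rtt109Δ cells are MATa and lack Rtt109, an acetyltransferase that marks newly made histone H3. The hst3Δ hst4Δ cells are MATalpha and lack Hst3 and Hst4, the deacetylases that remove that mark. The wild type (WT) is MATa. The 3 strains share a deletion of BAR1, a thymidine kinase construct at URA3, a nucleoside transporter construct at AUR1, and the alleles ade2-1, his3-11, leu2-3, trp1-1, ura3-1 and can1-100. WT and hst3Δ hst4Δ cells also carry an ADE2 insertion at ade2-1 and an HA-tagged Rpb3, a subunit of RNA polymerase II. The rtt109Δ cells are labelled GAL psi+ RAD5+ and carry neither. Each deletion therefore differs from WT in more than the named genes, and these differences cannot be told apart from the deletion. Nothing in the labels says that the libraries of a group came from separate cultures, so p-values measure the spread between these libraries, which may be technical.

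The spike-in scaled sum of coverage ran from 474278 to 784679 over the 6 libraries. The number of reads behind it is not given, so the depth is unknown. The deleted genes were close to 0 where they should be. RTT109 had a level of 0 and 0.00132 in rtt109Δ, 0.986 and 0.861 in hst3Δ hst4Δ, and 0.778 and 0.845 in WT. HST3 was at 0.000743 and 0 in hst3Δ hst4Δ, against 1.29 and 1.37 in WT. Coverage on the strand opposite to highly covered ORFs, where no ORF is labelled, differed between libraries. Its median share of the sense coverage was 0.525% and 0.0969% in rtt109Δ, 0.132% and 0.915% in hst3Δ hst4Δ, and 1.44% and 0.0568% in WT, over 235 ORFs. The first WT library stood highest and the second lowest.

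In yeast, the 3′ end of an mRNA is made by cleavage of the nascent transcript and addition of a poly(A) tail. The cleavage machinery reads short A- and U-rich elements: an efficiency element, of which TATATA is the classic DNA form, a positioning element such as AATAAA, and the poly(A) site itself. After cleavage the polymerase continues for some distance, and the exonuclease Rat1 degrades the uncapped RNA and releases the enzyme. Between convergent genes, transcription that runs on would become antisense to the neighbour. Histones carrying the mark of Rtt109 are deposited during replication and exchanged at transcribed genes.

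The elements below were read past the stop codon of ends on which the results turn, from the RefSeq sequence of assembly R64 on the strand of the gene. Each stretch has 30 bases, with the first TATATA within 200 bases of the stop in capitals or, for an end with none, the first AATAAA. CDC33, SAM4 and HPF1 are ends whose gap had little coverage relative to the ORF, while RPS10A, HTA2 and ACT1 had a high level in the gap itself. These are different measures. Relative to its ORF, the ACT1 gap had 13.2% to 21.7%, near the library medians of 11.8% to 19.0%. The stretches therefore do not set low against high ends. The HSP26 gap was higher in both deletions than in WT. NQM1 was called by ratio alone, with an almost empty gap and a higher ORF in rtt109Δ.
CDC33, chr15:60320-60349, minus strand: tttaatcaaaatTATATAtataatcataat
SAM4, chr16:26088-26117, plus strand: aattcttaacatTATATAtatgctaaaagc
HPF1, chr15:28621-28650, minus strand: taatatgcgtttTATATAcgctttgtgtaa
HSP26, chr2:382778-382807, plus strand: aattagtttagaTATATAtgagttgatgaa
NQM1, chr7:580393-580422, minus strand: gaggtacctactTATATAtataaatatata
RPS10A, chr15:867892-867921, plus strand: ttcttctggttcTATATAtctaggtttata
HTA2, chr2:235227-235256, minus strand: agtattactattAATAAAgaaaataaaaaa
ACT1, chr6:53172-53201, minus strand: aaccaccctctcAATAAAataaaaataata

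Of the 1948 convergent ends whose ORF matched R64, 680 (34.9%) had TATATA in the first 100 bases past the stop codon. The same search found it at 33.2% of 2179 ends whose next gene lies in tandem, and in the last 100 bases of 3.13% of the convergent ORFs. AATAAA was found at 20.4% of convergent ends and at 23.3% on the opposite strand of the same bases. TATATA reads the same on both strands, so its share does not depend on the strand searched. PIR3, DDR2, SNZ1, TNA1 and CYC1 held neither set of letters in 200 bases, which says only that these letters are not in that window.

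Coverage fell steeply across the end of the ORF and was low within 200 bp. The median convergent end had 38.1% and 36.7% of the mean level of its ORF in the first bin past the ORF in rtt109Δ, 44.9% and 30.8% in hst3Δ hst4Δ, and 44.8% and 31.7% in WT. In the bin from 150 to 200 bp the medians were 1.53% and 1.36% in rtt109Δ, 2.05% and 1.79% in hst3Δ hst4Δ, and 3.37% and 0.974% in WT. The first WT library was the highest of the 6 there and the second the lowest. From 250 bp on, the first WT library kept medians of 1.56% to 1.91% and the second 0.255% to 0.415%, the same order as their antisense shares. These values cover ORFs with a mean level of at least 0.5, 1666 of the 2002 ends; the other 336 had too little coverage for a ratio.

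**Figure D1:**
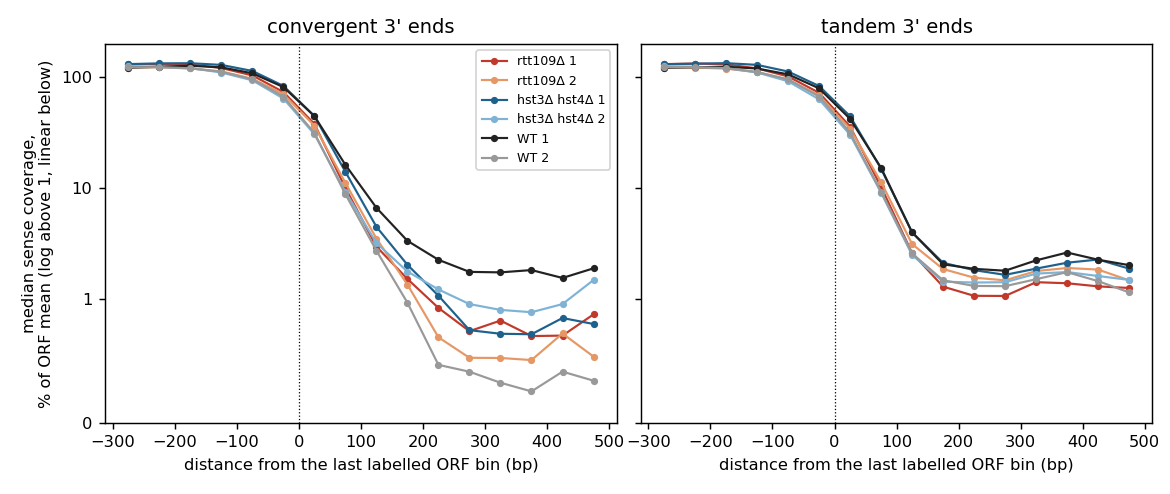
Median sense coverage per bin of 50 bases, in percent of the mean level of the upstream ORF, against the distance from the last labelled ORF bin, for convergent ends (left) and tandem ends (right), 1 line per library. In the first bin past the ORF the convergent medians lie between 30.8% and 44.9%, and beyond 200 bp the first WT library lies above the other 5 in the left panel.

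These percentages depend on how coverage is placed on the table's ORF labels. As deposited, the coverage sat to the left of the labels on both strands: the median gap level was 2.51% of the ORF at Watson ends and 65.6% at Crick ends. Moved to the right by 2 bins (100 bp), the medians were 13.6% and 16.4%, and this placement was used throughout. From position 121951 of chromosome 10 on, the local match was best at 400 bp, and 47 gaps there were placed accordingly. On chromosome 2 most windows of 40 kb matched best at 3 bins, by small margins (correlation 0.867 against 0.863 at 2 bins from position 200001). They were kept at 2 bins, and HTA2, RPS6B, HSP26 and VID24 lie in such windows. Away from chromosome 10 the Crick median was 6.63% at a move of 150 bp, so the ratios of Crick ends such as HTA2 and RPS6B are uncertain there. The ratio of a single end is therefore known only within the spread that 1 bin gives, while a comparison of libraries uses the same placement in each.

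**Figure D2:**
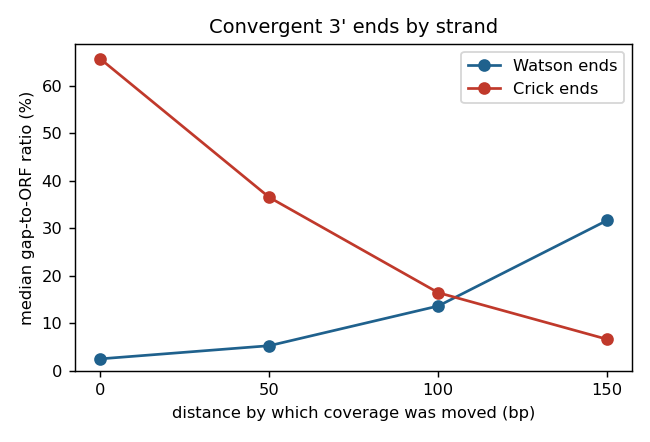
Median gap level in percent of the ORF level, for Watson and Crick convergent ends, against the distance in bp by which coverage was moved to the right. The 2 strands cross near 100 bp, at 13.6% (Watson) and 16.4% (Crick), and differ most without a move, at 2.51% and 65.6%.

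The ratio of the gap's mean level to that of its upstream ORF, in percent, was taken as the measure of coverage past the ORF. A gap begins at the end of the ORF and not at the poly(A) site, which was not located. Coverage in a gap can thus belong to the mRNA before that site. It was not separated from coverage past the site, so a high ratio at any end is not a measure of transcription that runs on. Its median over 1666 convergent ends was 14.3% and 14% in rtt109Δ, 17.7% and 12.3% in hst3Δ hst4Δ, and 19.0% and 11.8% in WT. The medians of the 2 WT libraries enclosed the other 4. The lower quartile of the ratio was 6.05% and 6.02% in rtt109Δ, 8.05% and 5.28% in hst3Δ hst4Δ, and 9.48% and 4.88% in WT. The upper quartile was 28.3% and 28.5% in rtt109Δ, 35.6% and 24.8% in hst3Δ hst4Δ, and 34.9% and 24.8% in WT, where the first hst3Δ hst4Δ library was the highest. The gap level exceeded the ORF level in all 6 libraries at 15 ends. Ends kept their rank: between any pair of libraries the log2 ratio had a Spearman rho of 0.926 to 0.970 over 1666 ends. This is a description, since these ends share annotation and placement. The libraries of a group had a rho of 0.951 in rtt109Δ, 0.9355 in hst3Δ hst4Δ and 0.937 in WT. The second rtt109Δ library had higher values with the first hst3Δ hst4Δ library (0.970) and the second WT library (0.964). Other pairs of unlike groups went down to 0.926. Libraries of a group were thus no closer to each other than to some of another group. The pair of ends of a gap showed little relation to each other in WT (rho -0.10 over 717 gaps).

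The ratio is a mean over the whole gap while coverage falls within it, so long gaps average lower by construction. In gaps of 100 to 150 bp the median was 16.6% and 16.5% in rtt109Δ, 20.7% and 14.2% in hst3Δ hst4Δ, and 21.2% and 14.4% in WT. In gaps over 500 bp it was 7.87% and 7.92% in rtt109Δ, 10.4% and 6.87% in hst3Δ hst4Δ, and 11.5% and 6.73% in WT. The ORF level is the denominator of the ratio, so a split by it favours lower ratios at high levels. The ratio was 20.5% and 17.6% in rtt109Δ, 24.1% and 17.2% in hst3Δ hst4Δ, and 24.7% and 15.5% in WT in the quartile class of ends with the lowest ORF level. In the class with the highest level it was 11.2% and 11.7% in rtt109Δ, 13.7% and 9.77% in hst3Δ hst4Δ, and 14.2% and 9.85% in WT. Both orders held in each of the 6 libraries. Crick ends lay above Watson ends in all 6 libraries, which moves with the placement described above. Tandem ends had medians of 12.8% and 14% in rtt109Δ, 17% and 11.7% in hst3Δ hst4Δ, and 16.9% and 12.8% in WT.

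**Figure D3:**
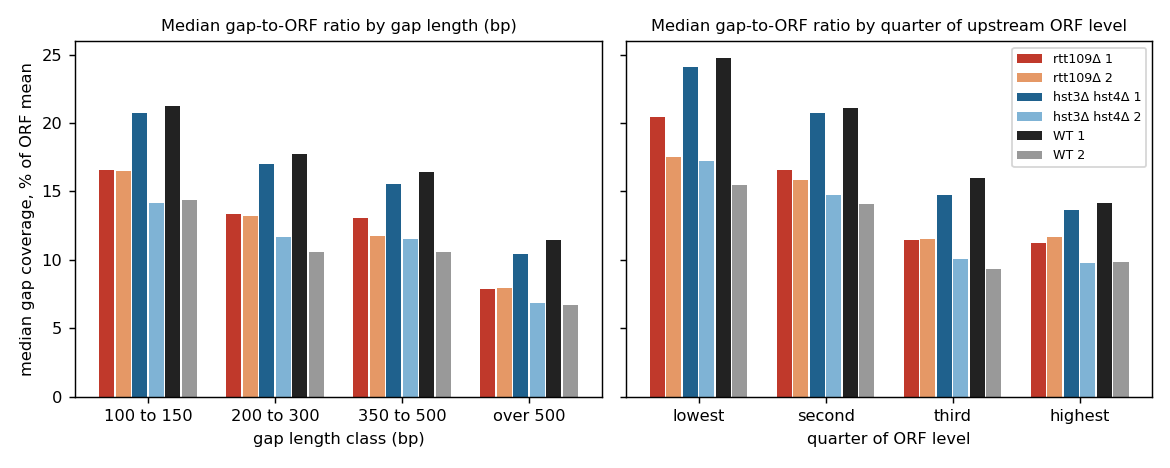
Median gap-to-ORF ratio in percent by gap length class (left) and by quartile class of upstream ORF level (right), 1 bar per library. In each library the ratio is lowest in gaps over 500 bp, at 6.73% to 11.5%, and highest in gaps of 100 to 150 bp, at 14.2% to 21.2%.

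The share of ends with the efficiency element differed along the ratio, which is given as a description with no test. In WT, TATATA stood in the first 100 bases past the stop codon of 45.1% of the quartile class of ends with the lowest ratio, of 43.1% and 33.1% of the next classes, and of 23.1% of the class with the highest ratio (414 or 415 ends each). The median share of A and T in those bases moved with it, 76% in the lowest class and 67% in the highest, and its part in the difference was not tested. AATAAA differed less, at 23.6% in the lowest class and 19.0% in the highest.

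The ends of genes whose terminators are in common laboratory use ranged from under 1% of the ORF level to well above the median. CYC1, which encodes iso-1-cytochrome c and whose 3′ end is a standard expression terminator, had a gap level of 9.82 and 12.4 in rtt109Δ, 20.7 and 14.6 in hst3Δ hst4Δ, and 11.2 and 15.1 in WT. This was 25.6% and 27.6% of its ORF in rtt109Δ, 32.5% and 23.5% in hst3Δ hst4Δ, and 38.2% and 27.6% in WT. The CYC1 gap of 150 bp lies in the part of chromosome 10 that was placed by a move of 400 bp. The rtt109Δ ratios lay at or just below the lower WT ratio, and the difference did not pass (log2 difference -0.29, limma adjusted p 0.9998). TDH3, the main glyceraldehyde-3-phosphate dehydrogenase, had 0.363% and 0.357% in rtt109Δ, 0.398% and 0.320% in hst3Δ hst4Δ, and 0.771% and 0.296% in WT, among the lowest ratios measured. The actin gene ACT1 lay between, at 17.4% and 16.9% in rtt109Δ, 21.7% and 13.2% in hst3Δ hst4Δ, and 17.5% and 15.7% in WT. The aldolase gene FBA1 stayed between 0.941% and 2.96% and the ribosomal protein gene RPL3 between 1.17% and 3.48%. VMA2, a subunit of the vacuolar ATPase, stood at 33.2% to 61.0%. ENO1 (7.81% to 18.0%) and TEF1 (9.52% to 259%) have near-identical copies elsewhere, so their values are uncertain. TDH3 has similar copies too, and whether this moved its ratio was not tested.

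Among ends with an ORF mean of at least 2, the highest gap levels in WT belonged to ribosomal protein and histone genes. RPS20, of the small ribosomal subunit, had a gap level of 62.1 and 85.7 in rtt109Δ, 159 and 77.2 in hst3Δ hst4Δ, and 151 and 166 in WT, with a ratio of 33.3% to 46.7%. RPL38, of the large subunit, stood at 33.3 and 53.7 in rtt109Δ, 85.4 and 28.7 in hst3Δ hst4Δ, and 110 and 53.2 in WT. HTA2, which encodes histone H2A, had a ratio of 53.4% to 67.3% in the 6 libraries, and RPS10A 31.3% to 52.0%. Both rtt109Δ gap levels lay below both WT levels at RPS20 (log2 difference -1.12, limma adjusted p 0.334), and none of these ends passed. HTA2 had a gap level of 21.8 and 42.2 in rtt109Δ, 63.7 and 23.2 in hst3Δ hst4Δ, and 74.9 and 53.9 in WT (rtt109Δ against WT -1.07, limma adjusted p 0.382). RPS10A had 37.8 and 47.0 in rtt109Δ, 84.0 and 33.5 in hst3Δ hst4Δ, and 100.3 and 49.5 in WT (rtt109Δ against WT -0.74, limma adjusted p 0.472). The rtt109Δ libraries lay below WT at both, while the hst3Δ hst4Δ libraries overlapped WT at RPS20, RPL38, HTA2 and RPS10A. The HTA2 ratio was 60.6% and 57.7% in rtt109Δ, against 55.4% and 54.3% in WT (log2 difference 0.11, limma adjusted p 0.9998). ASC1 also stood among the highest levels, but its ORF label in the table is 483 bases shorter than the RefSeq gene, so its gap holds coding sequence. This holds for 11 of 1957 ends, IMD4 and URA7 among them, whose ratios of 104% to 163% and 106% to 134% are therefore not 3′ end values.

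Among ends with complete labels and an ORF mean of at least 2, RPS6B, RPS9A and TCA17 had the highest ratios in WT. RPS6B had 237% and 217% in rtt109Δ, 274% and 186% in hst3Δ hst4Δ, and 335% and 215% in WT. RPS9A had 126% to 152% in the 6 libraries. Both ribosomal protein genes have a near-identical copy, whose reads could be split or lost over the ORF and not over the gap, so these ratios are uncertain. HTA2, RPS10A, RPS28B and RPL14A also belong to pairs of similar genes, and whether this moved their ratios was not tested. TCA17, a component of the TRAPP complexes of vesicle transport, had 120% and 125% in rtt109Δ, 109% and 113% in hst3Δ hst4Δ, and 120% and 108% in WT. Its coverage was still 102% to 119% of the ORF in bins over 200 bp past it, within a gap of 600 bp.

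Among ends with an ORF mean of at least 2, the lowest ratios in WT were those of HSP150, TDH3, RPL14A, SAM4 and CDC33. CDC33, the cap-binding protein eIF4E, had 0.296% and 0.322% in rtt109Δ, 0.419% and 0.237% in hst3Δ hst4Δ, and 0.892% and 0.310% in WT. SAM4, a homocysteine methyltransferase, had 0.165% to 0.517%, and RPL14A, of the large ribosomal subunit, 0.235% to 0.319%. The cell wall gene HSP150 had 0.00453% to 0.143%, but it lies at the point where the placement changes on chromosome 10, and only 5 bins of its gap of 550 bp had a value. The first TATATA of CDC33 and SAM4, printed above, lies 46 and 36 bases past the stop codon. That of TDH3 lies 69 bases past it, while in 200 bases RPL14A held only AATAAA and HSP150 neither. RPS10A, with a high gap level, had its first TATATA at 52 bases.

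Bins more than 200 bp past the ORF, present at 754 convergent ends, held little coverage. Their median was 0.983% and 0.613% of the ORF in rtt109Δ, 0.981% and 1.30% in hst3Δ hst4Δ, and 2.38% and 0.430% in WT. Once each library's antisense share of the opposite strand was taken off, they were 0.609% and 0.487% in rtt109Δ, 0.684% and 0.848% in hst3Δ hst4Δ, and 1.13% and 0.345% in WT. The WT libraries still enclosed the others. Tandem ends had medians of 4.83% to 7.63% in such bins, where the next gene's upstream region is read on the same strand. RPS28B, of the small ribosomal subunit, and PMP2, a regulator of the plasma membrane proton pump, were, at an ORF mean of at least 2, the ends of complete labels with the most distal coverage in WT after TCA17. RPS28B had 90.4% and 103% in rtt109Δ, 111% and 69.5% in hst3Δ hst4Δ, and 150% and 66.0% in WT. PMP2 had 78.9% to 94.2% over the 6 libraries.

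Coverage on the upstream gene's strand within the opposing gene was low at most ends and moved with the library's antisense share. Over the last 300 bp of the opposing ORF, on the strand of the upstream gene, the median was 1.33% and 0.533% of the upstream ORF in rtt109Δ, 0.831% and 1.97% in hst3Δ hst4Δ, and 2.76% and 0.361% in WT, over 1632 ends. The libraries took the same order as for the antisense share. With that share taken off, the medians were 0.510% and 0.330% in rtt109Δ, 0.514% and 0.697% in hst3Δ hst4Δ, and 0.604% and 0.245% in WT. The individual ends with the most such coverage in WT mostly faced a highly covered gene. SHO1, an osmosensor, faces RPL23B, and its value was 37.9% and 3.92% in rtt109Δ, 6.61% and 31.8% in hst3Δ hst4Δ, and 187% and 1.23% in WT. HIP1, a histidine permease, faces TDH3 and had 48.5% and 4.83% in rtt109Δ, 10.5% and 87.8% in hst3Δ hst4Δ, and 144% and 2.47% in WT. RPS28B stood apart, with 65.8% and 67.8% in rtt109Δ, 75.4% and 45.4% in hst3Δ hst4Δ, and 105% and 37.2% in WT, opposite an ORF with a level of 0.0109 to 0.688.

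Sense coverage of both genes of a pair shared a bin, at 10% or more of the ORF level, in a minority of gaps in 5 libraries. Of 717 gaps with both ORFs at a level of 0.5 or more, at least 1 bin held 10% or more of the ORF level on both strands in 29.6% and 27.5% in rtt109Δ, 36.7% and 30.5% in hst3Δ hst4Δ, and 50.1% and 20.8% in WT. After the antisense share was taken off, these were 26.8% and 26.8% in rtt109Δ, 36.1% and 25.4% in hst3Δ hst4Δ, and 38.9% and 20.6% in WT. A bin below that level on both strands was present in 41.6% to 58.2% of gaps before that subtraction. These shares depend on the cut of 10% and on the placement, and neither was varied here.

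Against WT, 4 of 1929 convergent gap strands were higher in rtt109Δ and none was lower (limma across all 13907 features, Benjamini-Hochberg adjusted p under 0.05). That is 0.207% of the members, while 0.309% of all features fitted were called in this comparison, 0.273% higher and 0.036% lower. The values are log2 of the spike-in scaled coverage plus 0.05, which understates changes of low gaps. The 4 were PIR3, HSP26, DDR2 and SNZ1, and the upstream ORF was also higher at the first 3. The SNZ1 ORF had a difference of 3.38 (limma adjusted p 0.0618). The median of the members was -0.38 and that of all features -0.29, and with the columns the authors normalized to 1 they were -0.05 and 0.02. With each library centred on its own median, 31 were called, 27 higher and 4 lower, which is 1.61% of the members and 2.09% of all features. The spike-in was mixed in by mass of total RNA, so a level is relative to that mass, and fewer cells of a type and less RNA per cell cannot be told apart.

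PIR3, a glycosylated protein of the cell wall, had a gap level of 3.67 and 5.72 in rtt109Δ, 3.65 and 1.98 in hst3Δ hst4Δ, and 0.139 and 0.149 in WT. All 4 deletion libraries were above both WT libraries. The gap was higher by 4.58 on the log2 scale in rtt109Δ (SE 0.376, limma adjusted p 0.000817) and its ORF by 5.07. HSP26, a small heat shock chaperone, had 0.897 and 0.551 in rtt109Δ, 0.741 and 0.384 in hst3Δ hst4Δ, and 0.0424 and 0.0235 in WT. The deletion libraries again lay above both WT libraries. The difference was 3.19 for the gap (SE 0.385, limma adjusted p 0.0113) and 3.84 for the ORF.

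DDR2, a stress-induced gene, had a gap level of 2.96 and 2.04 in rtt109Δ, 2.10 and 0.871 in hst3Δ hst4Δ, and 0.371 and 0.113 in WT. The rtt109Δ gap was higher by 3.26 (SE 0.515, limma adjusted p 0.0330). SNZ1, an enzyme of vitamin B6 synthesis, had 16.1 and 5.25 in rtt109Δ, 3.94 and 3.8 in hst3Δ hst4Δ, and 0.568 and 1.48 in WT. The rtt109Δ gap was higher by 3.25 (SE 0.545, limma adjusted p 0.0482), and leaving out any of the rtt109Δ or WT libraries ended that call. Without the second rtt109Δ library none of the 4 passed, and without the first, or without the second WT library, only PIR3 did. Leaving out either hst3Δ hst4Δ library, which enters only the spread, gave 9 calls, 8 higher and 1 lower (0.467% of the members and 0.582% of all features). The direction of the 4 held in each of these fits.

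**Figure D4:**
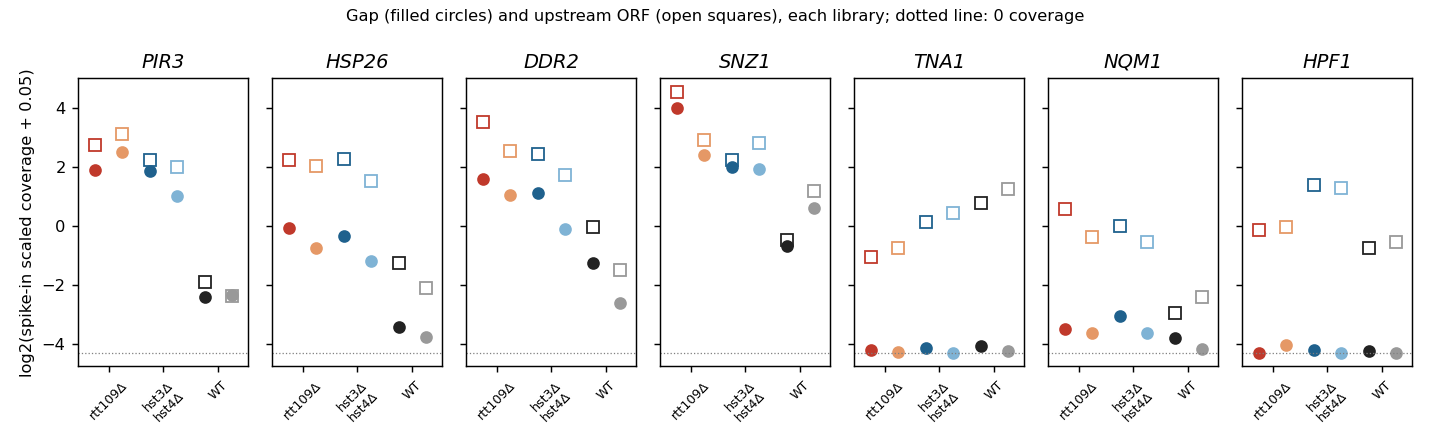
Level of the gap (filled circles) and of its upstream ORF (open squares) as log2(coverage + 0.05) in each library, for the 7 convergent ends called in any comparison. At PIR3, HSP26, DDR2 and SNZ1 circles and squares lie higher together in the deletion libraries than in WT, while at TNA1, NQM1 and HPF1 the circles stay near the dotted line of 0 coverage.

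In hst3Δ hst4Δ against WT, 2 of 1929 gap strands (0.104%) were higher and none lower, with 0.273% of all features called, 0.259% higher and 0.0144% lower. PIR3 was higher by 3.82 (SE 0.376, limma adjusted p 0.00358) and HSP26 by 2.83 (SE 0.385, limma adjusted p 0.0210). DDR2 had 2.43 (limma adjusted p 0.0918) and SNZ1 2.01 (limma adjusted p 0.227). ADR1, an activator of glucose-repressed genes, also had a small p-value without passing. Its gap level was 0.781 and 0.690 in hst3Δ hst4Δ, against 0.223 and 0.248 in WT (log2 difference 1.46, limma adjusted p 0.0806). The deletion libraries lay above both WT libraries there. The HSP26 call ended without either WT library, either rtt109Δ library or the first hst3Δ hst4Δ library, and the PIR3 call without either rtt109Δ library, which enter the shared estimate of the spread. The count was 0 without either rtt109Δ library, 1 without either WT library and 5 without the second hst3Δ hst4Δ library.

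Between hst3Δ hst4Δ and rtt109Δ, limma called 0 of 1929 gap strands, with 183 at an unadjusted p under 0.05 (9.49%, beside 11.7% of all features), and 0.0431% of all features called, 0.0288% higher and 0.0144% lower. The median member difference was 0.39, close to the 0.37 of all features. The smallest p-values were at YDR193W, VID24, SST2 and YFL057C. VID24, a substrate receptor of the GID ubiquitin ligase, had a gap level of 0.248 and 0.152 in hst3Δ hst4Δ, against 0.611 and 1.02 in rtt109Δ (log2 difference -1.78, limma adjusted p 0.221). SST2, which switches off the pheromone response, had 1.09 and 0.787 in hst3Δ hst4Δ, against 0.257 and 0.321 in rtt109Δ (1.53, limma adjusted p 0.224). The groups did not overlap at VID24 or SST2, and neither passed.

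Few ends were called by the ratio of gap to ORF. Of 1666 convergent ends, 2 (0.12%) were called in rtt109Δ against WT, 1 higher and 1 lower, with 0.237% of all 3371 ends called, 0.089% higher and 0.148% lower (limma, Benjamini-Hochberg adjusted p under 0.05). In hst3Δ hst4Δ against WT 1 end (0.060%) was called, lower, with 0.119% of all ends called, 0.0593% in each direction. Between hst3Δ hst4Δ and rtt109Δ limma called 0 convergent ends, with 16 at an unadjusted p under 0.05 (0.96%, beside 2.22% of all ends) and 0.0593% of all ends called, 0.0297% in each direction. The median log2 difference of the ratio was -0.03 in rtt109Δ and -0.03 in hst3Δ hst4Δ against WT, and 0.01 between hst3Δ hst4Δ and rtt109Δ. It moved with single libraries. Without the first WT library the medians against WT were 0.23 and 0.24 for rtt109Δ and hst3Δ hst4Δ, and without the second they were -0.28 and -0.29, when 18 and 13 ends were called, all lower (1.08% and 0.78% of convergent ends, 0.86% and 0.801% of all ends). For hst3Δ hst4Δ against WT the median was -0.22 without its first library and 0.18 without its second, and against rtt109Δ -0.20 and 0.22. The rtt109Δ count was 0 and 1 without the first and the second rtt109Δ library and 4 without either hst3Δ hst4Δ library. The hst3Δ hst4Δ count was 0 without either of its own libraries and 2 without either rtt109Δ library.

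At the 3 called ends the gap was almost empty, and the difference of the ratio was close in size and opposite in sign to that of the ORF. TNA1, a nicotinic acid permease, had an ORF level of 0.429 and 0.539 in rtt109Δ, 1.04 and 1.32 in hst3Δ hst4Δ, and 1.66 and 2.31 in WT. Its gap stood at 0 to 0.00894, below the added 0.05 in all 6 libraries. The log2 ratio was 1.84 higher in rtt109Δ (SE 0.376, limma adjusted p 0.0485) and the ORF 1.92 lower. Without the added 0.05 the TNA1 ratio was 0.898% and 0.305% in rtt109Δ, overlapping the 0.538% and 0.117% of WT. Its call ended in the columns normalized to 1 and at a move of 1 or 3 bins, among other settings. NQM1, a relative of transaldolase, had an ORF level of 1.44 and 0.717 in rtt109Δ, 0.940 and 0.632 in hst3Δ hst4Δ, and 0.0795 and 0.137 in WT, with its gap at 0.00543 to 0.0708. The ratio was lower by 2.37 in rtt109Δ (log2 difference -2.37, SE 0.400, limma adjusted p 0.0111) and the ORF higher by 2.78. Its mean ORF level in WT was 0.108, so it passed the minimum of 0.5 only through the deletion libraries, where the ORF is high, and its call is no independent result.

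HPF1, a cell wall mannoprotein, had an ORF level of 0.853 and 0.934 in rtt109Δ, 2.57 and 2.42 in hst3Δ hst4Δ, and 0.545 and 0.631 in WT. Only 4 bins of its gap of 1450 bp had a value, and their mean was at most 0.00987. The log2 ratio in hst3Δ hst4Δ against WT was -2.0 (SE 0.350, limma adjusted p 0.0171) and the ORF was 2.00 higher. The hst3Δ hst4Δ ORF levels lay above those of the other 4 libraries. With 0.01 added in place of 0.05, no convergent end was called by ratio in any comparison with WT. CRG1, a methyltransferase, and GPH1, glycogen phosphorylase, had the next smallest p-values in hst3Δ hst4Δ besides NQM1, at -1.83 and -1.59 (limma adjusted p 0.0769 and 0.169). At both the ORF was higher by more than the gap, and GPH1, at a mean ORF level of 0.101 in WT, passed the minimum only through the deletion libraries. The CRG1 gap was below the added 0.05 in 4 libraries. Without that constant its ratio was 1.13% and 0.875% in hst3Δ hst4Δ, between the 2.15% and 0% of WT, so no lower ratio is read from it.

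Across ends, gap and ORF differences went together. Over 1652 ends the log2 difference of the gap and that of the ORF in rtt109Δ against WT had a Spearman rho of 0.769, and in hst3Δ hst4Δ 0.687, values that share libraries and placement and are given as a description. The ORFs called in rtt109Δ numbered 9 among these ends (ECM13, HSP26, SED1, NQM1, CRG1, PIR3, DPA10, DDR2 and GPH1), all higher. They are 0.545% of these ends, beside 0.556% of all ORFs called. HSP26, PIR3, NQM1 and GPH1 had mean ORF levels of 0.274, 0.182, 0.108 and 0.101 in WT. These ends passed the ORF minimum of 0.5 only through the deletion libraries, so the common direction of the 9 is no independent result. Their gap differences had a median of 1.89 and their ORF differences one of 2.78; the ends were chosen by the ORF call and the added 0.05 narrows changes of low gaps, so nothing is read from this order. SED1, a structural cell wall protein, had 1.89 for the gap (limma adjusted p 0.0778) and 2.12 for the ORF in rtt109Δ.

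**Figure D5:**
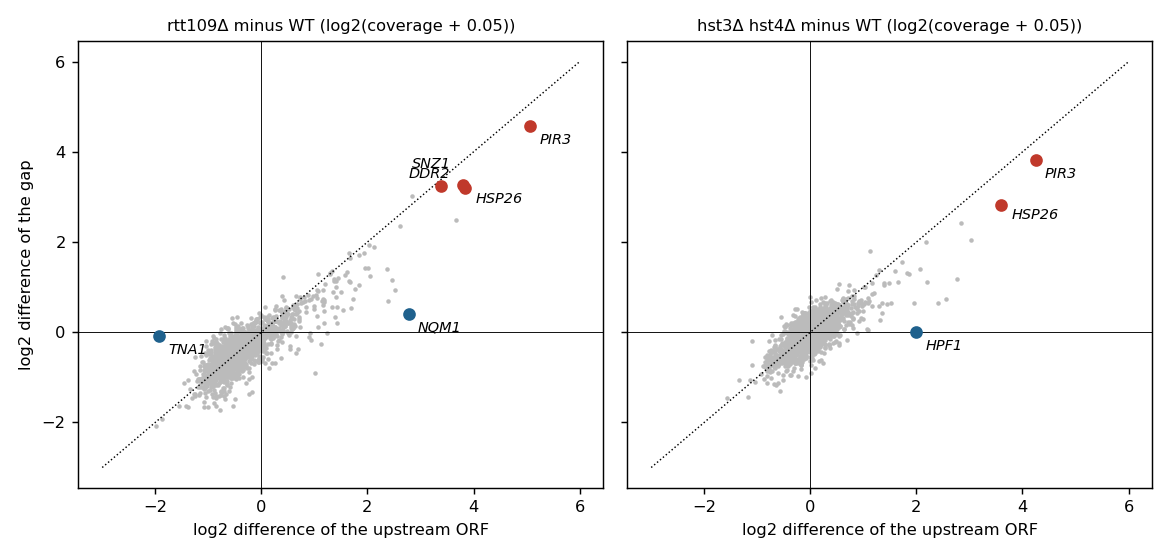
Log2 difference of the gap against that of its upstream ORF, 1 point per convergent end with an ORF level of at least 0.5, for rtt109Δ against WT (left) and hst3Δ hst4Δ against WT (right). Red points are gaps called by level and blue points ends called by ratio; PIR3 lies just under the diagonal of equal change, at 4.58 and 5.07, while TNA1 (-0.08) and NQM1 (0.41) on the left and HPF1 (0.0) on the right lie low on the vertical axis.

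Of the genes that the strains carry as edited loci or markers, ADE2, LEU2 and AUR1 end in a convergent gap. AUR1 had a ratio of 13.0% and 13.0% in rtt109Δ, 15.4% and 10.3% in hst3Δ hst4Δ, and 15.4% and 11.8% in WT. LEU2, whose allele here is leu2-3, had 1.41% and 2.14% in rtt109Δ, 2.49% and 1.24% in hst3Δ hst4Δ, and 3.04% and 1.52% in WT. ADE2 had 1.66% and 2.11% in rtt109Δ, 0.977% and 1.08% in hst3Δ hst4Δ, and 2.07% and 0.351% in WT, with its gap below 0.05 in all 6 libraries. The ratios of each deletion overlapped those of WT at all 3 ends, and those of hst3Δ hst4Δ lay below those of rtt109Δ at ADE2 (log2 difference -0.32, limma adjusted p 1).

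The genes that make and process 3′ ends did not pass the test as ORFs. Of 22 cleavage and polyadenylation genes, 21 genes of early termination and the exosome, and 12 genes of Rat1-type termination and cytoplasmic decay, limma called 0 in each of the 3 comparisons, where 0.556%, 0.556% and 0.0982% of all 6111 ORFs were called. In rtt109Δ against WT the list medians were -0.40, -0.53 and -0.63, beside -0.34 over all ORFs, and in hst3Δ hst4Δ -0.05, -0.06 and -0.17, beside 0.07. PCF11, a subunit of the cleavage factor that binds the polymerase, had -0.79 in rtt109Δ (limma adjusted p 0.365), and the RNA helicase gene MTR4 had -1.02 (limma adjusted p 0.330). Of 28 tested genes whose terminators serve in cloning, HSP12 and HSP26 were higher in rtt109Δ as ORFs, and HSP26 in hst3Δ hst4Δ.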

How the data were processed

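The 6 libraries were made with stranded mRNA kits, per the labels' protocols. The values are deposited coverage, a signal for each strand in bins of 50 bases; the column headers state spike-in scaling by the authors. Further deposited columns hold the coverage normalized to 1. CASAVA 1.7.0 is named in the submitters' processing notes. The aligner and yeast build were not given in the sources used here. Bins with an undefined letter in place of a value were left out (11670 of 240976, 4.84%).

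Watson ORFs had 97.9% of their coverage in the column of strand R and Crick ORFs 98.4% in that of strand F, which set the sense. Coverage was moved by 100 bp, a step chosen after seeing the data. The half-height points at ORF starts and stops, as labelled, lay at -52.6 to -102 bp from their R64 positions. Names came from RefSeq R64 (5871 of 6525 ORFs matched). An ORF's level is the mean over its inner bins without introns or other ORFs of its strand, and a gap's level the mean over its bins. The members and lists were chosen with earlier results of these data known.

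The level test used log2(value + 0.05) of ORFs and of both strands of gaps, less the 10% with the lowest mean; 1929 of 2014 convergent gap strands passed that filter. The ratio test used the log2 of gap plus 0.05 over ORF plus 0.05, at ends with an ORF mean of at least 0.5. Each was 1 limma fit of all 6 libraries (3 residual degrees of freedom, prior 7.08 for the level and 15.0 for the ratio) with Benjamini-Hochberg adjustment. Software was limma 3.58.1, R 4.3.3 and Python 3.11.15. In simulations for rtt109Δ against WT, the level test over 13907 features found 0%, 50.7% and 78.8% of features changed by 1, 2 and 3 (log2), and the ratio test over 3371 ends 8.96%, 82.1% and 89.4%. For hst3Δ hst4Δ against WT these were 1.49%, 52.2% and 77.3%, and 16.4%, 70.1% and 93.9%. The changes were added on the log2 scale, after the 0.05, to features drawn from all those fitted. Changes of coverage in low convergent gaps, which the 0.05 narrows, were not simulated, so these shares do not hold for them.

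Named were the ends of edited genes and of terminators used in cloning, the 5 WT extremes of each measure at an ORF mean of at least 2, and the called ends or, where fewer than 4 were called, the 4 smallest p-values. One end that this rule names is not reported here. ORFs called at these ends were named after their values were seen. Alternatives changed the added constant, the filter, the scaling, the ORF minimum, the ORF part, the distal bins, the prior, the block, the annotation, the placement, the antisense share and the libraries used.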

Additional observations from a re-analysis of the deposited data

How the results depend on the processing

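Counts of called ends are given as rtt109Δ against WT, then hst3Δ hst4Δ against WT, with 4 and 2 for the level and 2 and 1 for the ratio as reported. Shares in brackets are of the members, beside those of all features. For the level the counts were 0 and 0 with 0.5 added in place of 0.05, and 0 and 0 with no filter. Without the lowest 30% of features they were 10 and 5 (0.607% and 0.303%, beside 0.86% and 0.998%). In the columns normalized to 1 they were 15 and 1 (0.777% and 0.0518%, beside 0.992% and 0.137%). Centring each library on its median gave 31 (27 higher, 4 lower) and 6 (1.61% and 0.311%, beside 2.09% and 0.978%). A trend in the prior gave 8 and 8 (0.415% each, beside 0.561% and 0.978%). With 0.01 added the level counts were 5 and 8 (0.259% and 0.415%, beside 0.554% and 0.964%). With RefSeq features alone they were 4 and 1 (0.217% and 0.0543%, beside 0.4% and 0.384%). Of the placements added after seeing the data, a move by 1 bin gave 2 and 1 (0.105% and 0.0524%, beside 0.252% and 0.273%). Taking off the antisense share, also added then, gave 2 and 2 (0.103% each, beside 0.252% and 0.259%). Between hst3Δ hst4Δ and rtt109Δ, centring gave 4 calls, all lower (0.207%, beside 0.309%), and the trend 1 (0.0518%, beside 0.129%). The median of all features in rtt109Δ against WT was -0.01 with centring, 0.02 in the normalized columns and -0.29 as reported.

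For the ratio the counts were 4 and 3 with 0.5 added (0.24% and 0.18% of convergent ends, beside 0.178% and 0.267% of all ends). They were 0 and 0 with 0.01 added, with no ORF minimum, with an ORF minimum of 2 and against the last 300 bp of the ORF. Over bins more than 200 bp past the ORF they were 1 and 0 (0.133% for rtt109Δ, beside 0.196%). The normalized columns gave 3 and 2, all lower (0.18% and 0.12%, beside 0.267% and 0.148%). A move by 1 bin gave 3 and 2, all lower (0.18% and 0.12%, beside 0.238% and 0.149%). Taking off the antisense share gave 4 and 2 (0.24% and 0.12%, beside 0.386% and 0.237%). The deposited placement and a move by 3 bins each gave 1 for rtt109Δ (0.0606% and 0.0602%, beside 0.0902% and 0.119%). The cause of these differences was not tested.

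Leaving out each library gave 0 to 9 level calls for rtt109Δ, 0 to 5 for hst3Δ hst4Δ and 0 to 0 between the deletions, and 0 to 18, 0 to 13 and 0 to 0 for the ratio. A group left with 1 library is assumed to vary like the others. No called end, and no end named for its small p-value, changed direction under any alternative run; other described ends were not rerun. Libraries of the same replicate number did not deviate together. For the ratio across 1666 ends, their deviations correlated at -0.29 between rtt109Δ and hst3Δ hst4Δ. They correlated at 0.02 between rtt109Δ and WT and at -0.05 between hst3Δ hst4Δ and WT. The negative value means that libraries of unlike numbers deviated together there, and a block by such pairs was not tested. The replicate block gave 3 and 2 level calls (0.156% and 0.104% of the members, beside 0.115% and 0.122% of all features). It left SNZ1 at an adjusted p of 0.107 (limma) and gave 0 and 0 ratio calls. Without the block the counts were 4 and 2 for the level, and 2 and 1 for the ratio.

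Depth is unknown. The commonest smallest step of coverage was 0.00397 to 0.0124, so gap levels near it rest on few reads.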

Other observations

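Further ends with small p-values did not pass as gaps or ratios. PDR12, a weak acid efflux pump, had a gap-to-ORF ratio of 8.74% and 8.43% in rtt109Δ, against 71.9% and 23.2% in WT (log2 difference -1.91, limma adjusted p 0.0862). GTT2, a glutathione transferase, had 12.8% and 7.86% in hst3Δ hst4Δ, against 21.4% and 33.7% in rtt109Δ (log2 difference -1.34, limma adjusted p 0.808). AAD10 had 15.1% and 11.4% in hst3Δ hst4Δ, against 3.72% and 4.39% in rtt109Δ (log2 difference 1.2, unadjusted p 0.00655, limma). It lies near the end of chromosome 10, where the local match was weak (correlation 0.443 at its best move of 7 bins). YFL057C had a gap level of 0.324 and 0.263 in hst3Δ hst4Δ, against 0.0925 and 0.0823 in rtt109Δ (1.32, limma adjusted p 0.259). YDR193W, an ORF of the table with no RefSeq match, had a level of 0.551 and 0.590 in hst3Δ hst4Δ, against 0.00642 and 0.0132 in rtt109Δ, a log2 difference of 3.38 (limma adjusted p 0.00224). In WT this ORF had 0.0159 and 0.00362. By its name it lies close to HST4 (YDR191W), which is deleted in hst3Δ hst4Δ, and the part of that edit was not tested. The YDR193W gap had 0.256 and 0.153 in hst3Δ hst4Δ, against 0.0130 and 0.0301 in rtt109Δ. That was a difference of 1.81 (limma adjusted p 0.188).

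Both further ends with the most coverage inside the opposing gene in WT faced a ribosomal protein gene. NUP57, a nucleoporin that faces RPS23A, had coverage on its own strand within that gene at 29.1% and 4.17% of its ORF level in rtt109Δ, 5.62% and 24.5% in hst3Δ hst4Δ, and 142% and 1.69% in WT. UPS2, a mitochondrial lipid transfer protein that faces RPS31, had 23.2% and 10.4% in rtt109Δ, 19.3% and 37.8% in hst3Δ hst4Δ, and 118% and 11.6% in WT.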
